A study of Rattus norvegicus with 20 samples.

Results

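The genes described here encode splicing factors and heterogeneous nuclear ribonucleoproteins (hnRNPs), measured in the hippocampus of Gunn rat pups. They were chosen by gene symbol (the Srsf, Tra2, Hnrnp, Sf3a, Sf3b, U2af, Prpf, Ptbp, Nova, Rbfox and Mbnl families with Khsrp, Safb, Sltm and Spen) and by a mean read count of at least 10 over the 20 libraries. Of 32883 genes in the count table, 73 carried such a symbol and 70 met the count minimum. All 70 were also among the 15272 genes that were tested. The rule itself used no other values than these mean counts, but the gene families were chosen with earlier results of these data known. Just outside the minimum lay Mbnl3 with a mean count of 7.05, Hnrnpab with 0.35 and Srsf8 with 0, and the lowest genes inside it were Hnrnph3 with 73.05, Sf3b6 with 206.9 and Mbnl1 with 334.3.

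Each library was made from polyA RNA of the hippocampus of a pup at postnatal day 6, with 5 pups in each of 4 groups. Gunn rats carry a defect of the enzyme that conjugates bilirubin, so that homozygous pups (jj) become jaundiced and heterozygous pups (Nj) do not. One group of each genotype received no phototherapy. The other group of each genotype received intermittent LED light from day 4 to day 6, given as 3 h on and 3 h off in daytime up to 12 h of light. Every pup was of the Gunn strain, so no group lacked the mutant allele, and the heterozygous pups carried 1 copy. The labels do not give the litters of the pups, and the p-values therefore measure the spread between these libraries.

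Splicing removes introns from pre-mRNA through the spliceosome, a machine built from small nuclear ribonucleoproteins (snRNPs) that recognise the splice sites and the branch point. SR proteins, which carry stretches of serine and arginine, mostly promote the use of nearby exons, whereas many hnRNPs, the polypyrimidine tract binding (PTB) proteins among them, mostly repress them. In the developing brain Nova, Rbfox and the muscleblind proteins Mbnl1 and Mbnl2 switch large sets of exons from a fetal to a mature form.

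The promoters of 4 genes on which the light comparisons turn are shown as sequences: Khsrp, Spen and Sf3b3, which fell with light in Nj pups, and Mbnl2, which rose. Each run holds 250 bases before the transcription start and 50 bases after it, read 5′ to 3′ on the strand of the gene, from RefSeq on the rat build GRCr8. Capitals mark matches on either strand to 6 short motifs, which were the CCAAT box (CCAAT), the GC box (GGGCGG), the TATA box (TATAAA), the ETS site (CCGGAAG), the E-box (CACGTG) and the cAMP response element (TGACGTCA). Neighbouring matches can overlap.
Khsrp, chr9:1959351-1959650, minus strand: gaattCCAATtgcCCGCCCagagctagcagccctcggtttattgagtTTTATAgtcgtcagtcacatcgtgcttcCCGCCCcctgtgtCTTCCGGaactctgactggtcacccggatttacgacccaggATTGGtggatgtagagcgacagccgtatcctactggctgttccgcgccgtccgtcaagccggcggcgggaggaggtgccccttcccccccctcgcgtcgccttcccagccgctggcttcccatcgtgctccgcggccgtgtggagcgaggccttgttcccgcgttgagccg
Spen, chr5:159131694-159131993, minus strand: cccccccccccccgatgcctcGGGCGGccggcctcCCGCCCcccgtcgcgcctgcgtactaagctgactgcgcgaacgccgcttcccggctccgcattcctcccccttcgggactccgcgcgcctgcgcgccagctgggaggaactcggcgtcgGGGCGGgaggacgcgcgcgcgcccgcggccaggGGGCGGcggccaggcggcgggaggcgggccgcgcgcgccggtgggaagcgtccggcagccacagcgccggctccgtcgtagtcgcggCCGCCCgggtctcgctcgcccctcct
Sf3b3, chr19:55729572-55729871, minus strand: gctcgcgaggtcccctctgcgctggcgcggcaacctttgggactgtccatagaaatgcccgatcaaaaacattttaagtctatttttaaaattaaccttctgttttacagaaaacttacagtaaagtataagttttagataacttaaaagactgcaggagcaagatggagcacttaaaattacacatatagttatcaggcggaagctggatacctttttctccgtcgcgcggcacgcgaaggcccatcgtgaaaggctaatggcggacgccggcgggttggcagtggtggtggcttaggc
Mbnl2, chr15:103791938-103792237, plus strand: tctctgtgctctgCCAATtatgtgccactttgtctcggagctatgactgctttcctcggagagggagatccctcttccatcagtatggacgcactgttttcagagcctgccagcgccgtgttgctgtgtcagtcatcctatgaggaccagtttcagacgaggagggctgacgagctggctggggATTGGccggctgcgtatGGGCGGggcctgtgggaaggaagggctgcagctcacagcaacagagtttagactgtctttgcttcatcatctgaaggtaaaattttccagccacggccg

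The 4 windows differed widely in base composition. The Spen promoter had 81% G or C bases, 54 CpG pairs and 5 GC boxes. The Khsrp promoter had 63.3% G or C bases and held 2 CCAAT boxes, 2 GC boxes, 1 TATA box and 1 ETS match. The Mbnl2 promoter had 55.3% G or C bases with 2 CCAAT boxes and 1 GC box, and the Sf3b3 promoter had 47.3% with none of the 6 motifs in this window. All 70 genes were matched to RefSeq by symbol, and 61 of them had a promoter in the table. Their median G or C content was 61% and their median number of CpG pairs 26, against 51.7% and 7 over all 33469 promoters of this length. Over the 21851 protein-coding promoters of this length the medians were 55% and 11. A GC box was present in 39 of the 61 (63.9%) against 33.1% of all promoters, a CCAAT box in 32 (52.5%) against 37.5%, and an ETS match in 14 (23.0%) against 8.75%. A TATA box was found in 5 (8.20%) against 14.2%, and an E-box in 9 (14.8%) against 6.42%. The cAMP response element was found in 1 (1.64%) against 1.83%. Among protein-coding promoters the shares were 41.8% for the GC box, 38.0% for the CCAAT box and 10.7% for the ETS site. There they were 13.0% for the TATA box, 7.02% for the E-box and 2.10% for the cAMP response element. Among the 12 genes with a promoter that passed the test for light in Nj pups, 9 had a GC box, 5 had an ETS match and 0 had an E-box. These matches describe letters only.

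Libraries held 16882652 to 27112749 assigned reads. The tissue label matched its markers, since Prox1 of dentate granule cells lay at 89.3 to 135 counts per 1000000 assigned reads (CPM) and Neurod6 of pyramidal neurons at 218 to 362 CPM in every library. Kdm5d, a gene of the Y chromosome, was 0 in some libraries of every group. Its highest levels were 38.9 CPM in untreated Nj, 37.4 in untreated jj, 37.8 in treated Nj and 42.3 in treated jj pups. The sex of the pups was not in the model. Together the 70 genes took 0.885% to 0.996% of the counts of a library. Ttr, the main transcript of choroid plexus, ranged from 3.57 to 9656 CPM and exceeded 1000 CPM in 7 libraries, of which 2 came from treated Nj and 3 from treated jj pups, and 1 came from each untreated group. The untreated jj library with the highest Ttr level, replicate 3, also had the lowest median deviation of the splicing genes among the 20 libraries. It was -0.08 on the log2 scale from the mean of all pups. Treated jj replicates 5 and 4, also rich in Ttr, followed at -0.07 and -0.05. The remaining libraries rich in Ttr did not all lie low. Untreated Nj replicate 3 had the highest median deviation of the 20 libraries, at 0.06. Treated Nj replicates 2 and 5 lay at 0.02 and -0.02, and treated jj replicate 2 at -0.04. In whole tissue, fewer cells of a type and less RNA per cell cannot be told apart.

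Light in Nj pups changed 13 of the 70 splicing genes, of which 11 were lower and 2 were higher in treated pups (edgeR quasi-likelihood test, Benjamini-Hochberg adjusted p under 0.05 over all 15272 genes). That is 18.6% of them, where 4.00% of all genes tested were called, 2.51% lower and 1.49% higher. Because the gene families were chosen with earlier results of these data known, these shares are a description and no test of the set. The genes that fell were Khsrp, Spen, Sf3b3, Nova2, Srsf4, Safb, Prpf6, Sf3a1, Prpf8, Hnrnpl and Sf3b2, and those that rose were Mbnl2 and Srsf5. Changes were small, from -0.36 to 0.25 on the log2 scale over the 70 genes, with a median of -0.03 against 0.00 for all genes. At an unadjusted p under 0.05 the count was 21 of 70, 19 of them lower, where 18.1% of all genes passed. DESeq2 called 16 of the 70, all 13 of these genes with Hnrnpul1, Hnrnpul2 and Sf3a2, and 6.52% of the genes it tested. The 5 treated and 5 untreated Nj pups had ranges of CPM that did not overlap for 14 splicing genes that were lower and 1 that was higher, against 3.39% and 3.07% of all genes tested. The count rested in part on single libraries: it was 7 without untreated Nj replicate 4, 5 without untreated Nj replicate 5, 7 without treated Nj replicate 2 and 7 without treated Nj replicate 5, and 3 without the 7 libraries rich in Ttr, where 0.723% of all genes were called. All untreated Nj libraries carry other title prefixes than the treated ones, so whatever the prefix stands for and the light cannot be told apart.

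**Figure D1:**
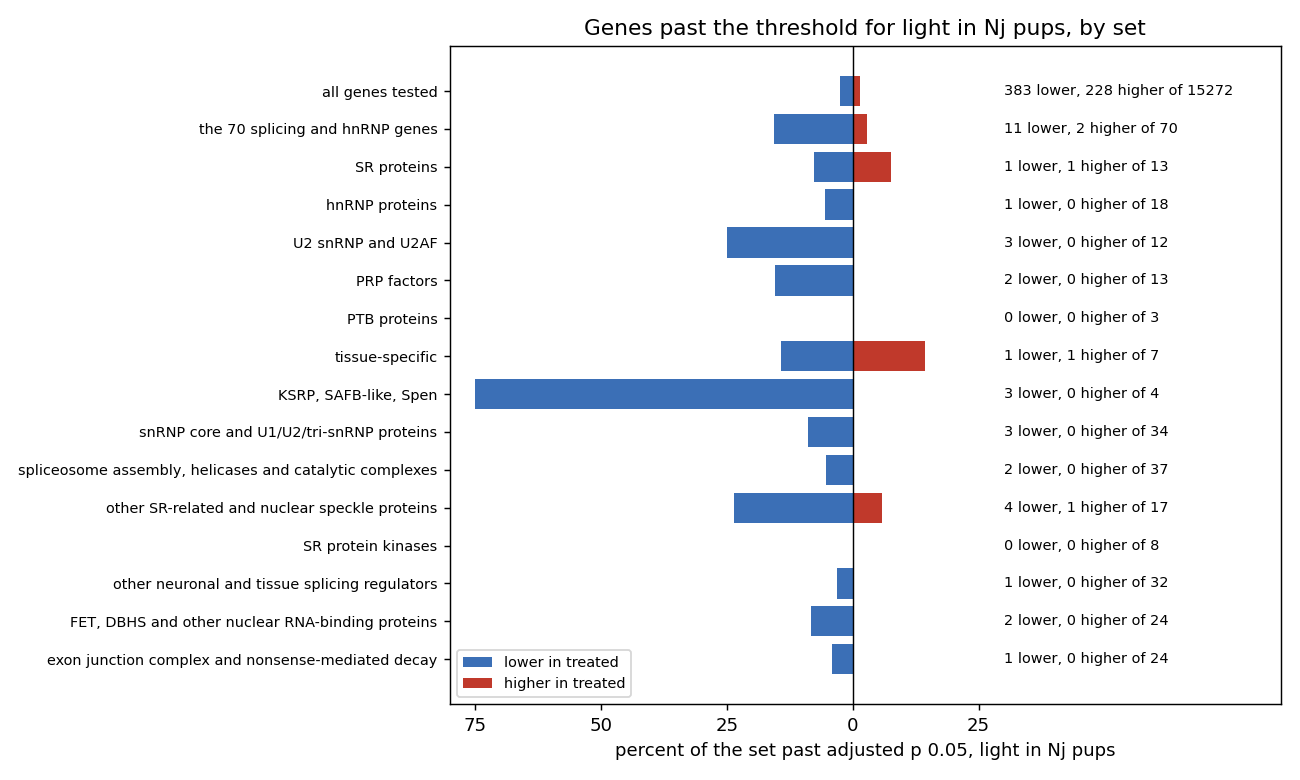
Percent of each gene set past adjusted p 0.05 for light in Nj pups, with genes lower in treated pups to the left and genes higher to the right. The 70 splicing and hnRNP genes had 11 lower and 2 higher, and the 3 called genes among Khsrp, Safb, Sltm and Spen make the longest bar.

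Among the 12 genes for the U2 snRNP and for recognition of the 3′ splice site, 3 fell and 0 rose. Of all genes tested 2.51% fell and 1.49% rose. Sf3b3 (ENSRNOG00000017724), a subunit of the SF3b complex that holds the branch point, measured 126, 122.97, 128, 132 and 137 CPM in the 5 untreated Nj pups and 105, 109, 109.7, 109 and 100.1 in the 5 treated ones. The groups did not overlap, and the fitted change was -0.28 (SE 0.04, edgeR adjusted p = 0.00126), or 0.824 times the untreated level. Sf3b2, its neighbour in SF3b, lay at 274, 273, 272, 284 and 288 CPM without light and 255, 242, 261, 258 and 240.5 with it. These groups were also apart, with a change of -0.15 (SE 0.03, edgeR adjusted p = 0.0186). Sf3a1, the largest subunit of SF3a, gave 114, 108, 106, 113 and 116 CPM in untreated pups against 98.5, 98.1, 97.2, 102 and 94.3 in treated pups. Every treated pup was below every untreated one, and the change was -0.18 (SE 0.04, edgeR adjusted p = 0.00925). Sf3a2 and Sf3b4 had ranges that did not overlap either, with changes of -0.25 and -0.13, but missed the threshold (edgeR adjusted p = 0.0832 and 0.126). Sf3b1, the scaffold of SF3b, was 358 ± 20.1 CPM (SD, n = 5) untreated and 370.4 ± 23.2 treated, a difference of 0.05. U2af1, the small subunit of U2AF, differed by -0.02, and U2af2, the large subunit that binds the polypyrimidine tract, by -0.12 (edgeR adjusted p = 0.165). Of these calls, Sf3b3 held without any single library, and of the 17 alternative fits only the one without the libraries rich in Ttr lost Sf3a1 (adjusted p = 0.0624). The call of Sf3b2 was lost without untreated Nj replicate 4 or 5 or treated Nj replicate 2 or 5 (adjusted p up to 0.0764).

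Of 13 genes named for pre-mRNA processing (Prpf), 2 fell and 0 rose, where 2.51% of all genes fell and 1.49% rose. Prpf6, which bridges the U5 and U4/U6 particles in the tri-snRNP, measured 83.5, 85.3, 84.4, 87.0 and 91.7 CPM in untreated Nj pups and 74.5, 75.9, 78.9, 77.4 and 71.5 in treated ones, without overlap. Its change was -0.19 (SE 0.04, edgeR adjusted p = 0.0105), and the call was lost without untreated Nj replicate 5 (adjusted p = 0.0513). Prpf8, the core of the U5 snRNP at the catalytic centre, lay at 421, 418, 459.7, 466 and 449 CPM against 415, 399, 401, 389 and 380.3. The highest treated pup was just below the lowest untreated pup, and the change was -0.16 (SE 0.04, edgeR adjusted p = 0.0274). Without untreated Nj replicate 3, 4 or 5 or treated Nj replicate 2, 4 or 5 the Prpf8 call was lost (adjusted p up to 0.0982). The 11 other Prpf genes differed by -0.10 to 0.07 and did not pass, Prpf19, a ubiquitin ligase of the spliceosome, among them at 353 ± 11.5 CPM untreated and 341 ± 9.41 treated (mean ± SD, n = 5).

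SR proteins moved in both directions, with 1 of 13 lower and 1 higher, where 2.51% of all genes were called lower and 1.49% higher. Srsf4 measured 65.6, 67.8, 62.2, 69.1 and 69.7 CPM in untreated Nj pups and 62.8, 60.0, 57.1, 57.3 and 55.3 in treated ones. One treated pup at 62.8 CPM reached above the lowest untreated pup at 62.2, and the change was -0.19 (SE 0.04, edgeR adjusted p = 0.0134, or 0.0589 without untreated Nj replicate 5). Srsf5 lay at 127, 142, 137, 120.3 and 146 CPM without light and at 168, 163, 159, 149 and 163 with it. It was the only one of the 70 whose treated range lay wholly above the untreated one, with a change of 0.25 (SE 0.07, edgeR adjusted p = 0.0486). This call was the least secure of the 13, since it was kept in only 2 of the 10 fits that left out 1 library, those without untreated Nj replicate 2 or treated Nj replicate 4 (adjusted p up to 0.149 in the others). The other SR genes stayed close to their untreated level, with Srsf1 at -0.01, Srsf2 at -0.08, Srsf3 at 0.02 and Srsf7 at 0.06. Both transformer 2 genes, whose products bind exonic enhancers, missed the threshold, Tra2a with 0.09 and Tra2b with 0.02.

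The hnRNP genes were mostly a little lower, 15 of 18, where 49.7% of all genes tested were lower. Only 1 passed, or 5.56% against 4.00% of all genes. Hnrnpl, which binds CA repeats, measured 318, 310.4, 329, 325 and 342 CPM in untreated Nj pups and 302, 282, 295, 299 and 281 in treated ones. The ranges did not overlap, with a change of -0.15 (SE 0.04, edgeR adjusted p = 0.0245), and the call was lost without untreated Nj replicate 4 or 5 or treated Nj replicate 2 or 5 (adjusted p up to 0.0945). Just outside the threshold, Hnrnpul1 and Hnrnpul2, relatives of Hnrnpu, had ranges that did not overlap and changes of -0.13 and -0.13 (edgeR adjusted p = 0.0502 and 0.0795). Several of the best known hnRNPs differed by less than 0.15 and did not pass, with Hnrnpa1 at -0.09, Hnrnpa2b1 at -0.03, Hnrnpd at -0.14, Hnrnpk at -0.02 and Hnrnpu at -0.08. Hnrnpc differed by 0.09 with an SE of 0.32, too wide for a statement.

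Of 7 tissue-specific regulators, 1 rose and 1 fell, where 1.49% of all genes rose and 2.51% fell. Mbnl2 (ENSRNOG00000010737), a muscleblind protein that in brain favours adult exon choices, measured 63.9, 54.4, 56.6, 51.8 and 50.2 CPM in untreated Nj pups and 60.2, 67.5, 63.6, 71.7 and 67.5 in treated ones. A single untreated pup, at 63.9 CPM, overlapped the treated range, and the change was 0.25 (SE 0.07, edgeR adjusted p = 0.0354). Without untreated Nj replicate 2, 4 or 5 or treated Nj replicate 2, 4 or 5 the call was lost (adjusted p up to 0.122). Nova2, a neuronal regulator with KH domains, lay at 52.4, 57.1, 53.9, 66.1 and 67.0 CPM untreated and 47.6, 52.5, 45.0, 51.8 and 46.4 treated. The ranges overlapped only between 52.4 and 52.5 CPM, and the change was -0.28 (SE 0.08, edgeR adjusted p = 0.0439), with the call lost without untreated Nj replicate 2, 4 or 5 or treated Nj replicate 1, 2, 3 or 5 (adjusted p up to 0.154). Nova1 differed by 0.07, Mbnl1 by 0.11, Rbfox1 by 0.09, Rbfox2 by -0.11 and Rbfox3, the antigen NeuN of mature neurons, by 0.06, none past the threshold. None of the 3 PTB genes passed. Ptbp1, the form of non-neuronal cells and progenitors, was 63.7 ± 4.45 CPM untreated and 55.2 ± 1.1 treated (mean ± SD, n = 5), with ranges that did not overlap and a difference of -0.20 (edgeR adjusted p = 0.135). Ptbp2, the form of young neurons, differed by 0.03.

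The steepest decreases of the 70 genes belonged to Khsrp and Spen. Khsrp (ENSRNOG00000047628), the KH-type protein KSRP that takes part in splicing and in decay of AU-rich mRNA, measured 65.8, 73.5, 70.6, 77.6 and 73.8 CPM in untreated Nj pups and 53.9, 54.9, 58.0, 60.3 and 54.8 in treated ones. The groups were well apart, with a change of -0.36 (SE 0.06, edgeR adjusted p = 0.00187), or 0.781 times the untreated level. Spen (ENSRNOG00000033556), a large RNA-binding repressor known for its role in silencing by Xist and in Notch signalling, lay at 129, 129.6, 124, 155 and 142 CPM without light and 111, 105, 111, 113 and 101 with it. Here too no treated pup reached an untreated one, and the change was -0.33 (SE 0.05, edgeR adjusted p = 0.00206), or 0.795 times. Safb, scaffold attachment factor B of the nuclear matrix, gave 115, 113, 112, 118 and 118 CPM untreated against 102, 100.4, 98.2, 104 and 98.3 treated. Its groups did not overlap, with a change of -0.19 (SE 0.04, edgeR adjusted p = 0.0103), and of the 17 alternative fits only the one without the libraries rich in Ttr lost the call (adjusted p = 0.0728). Sltm, the relative of Safb, was 105 ± 5.44 CPM untreated and 106 ± 4.19 treated (mean ± SD, n = 5), a difference of 0.02. Khsrp, Spen and Sf3b3 were the 3 genes that passed in all 17 alternative fits of this comparison, including the fit without the libraries rich in Ttr, where each had an edgeR adjusted p of 0.0321.

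**Figure D2:**
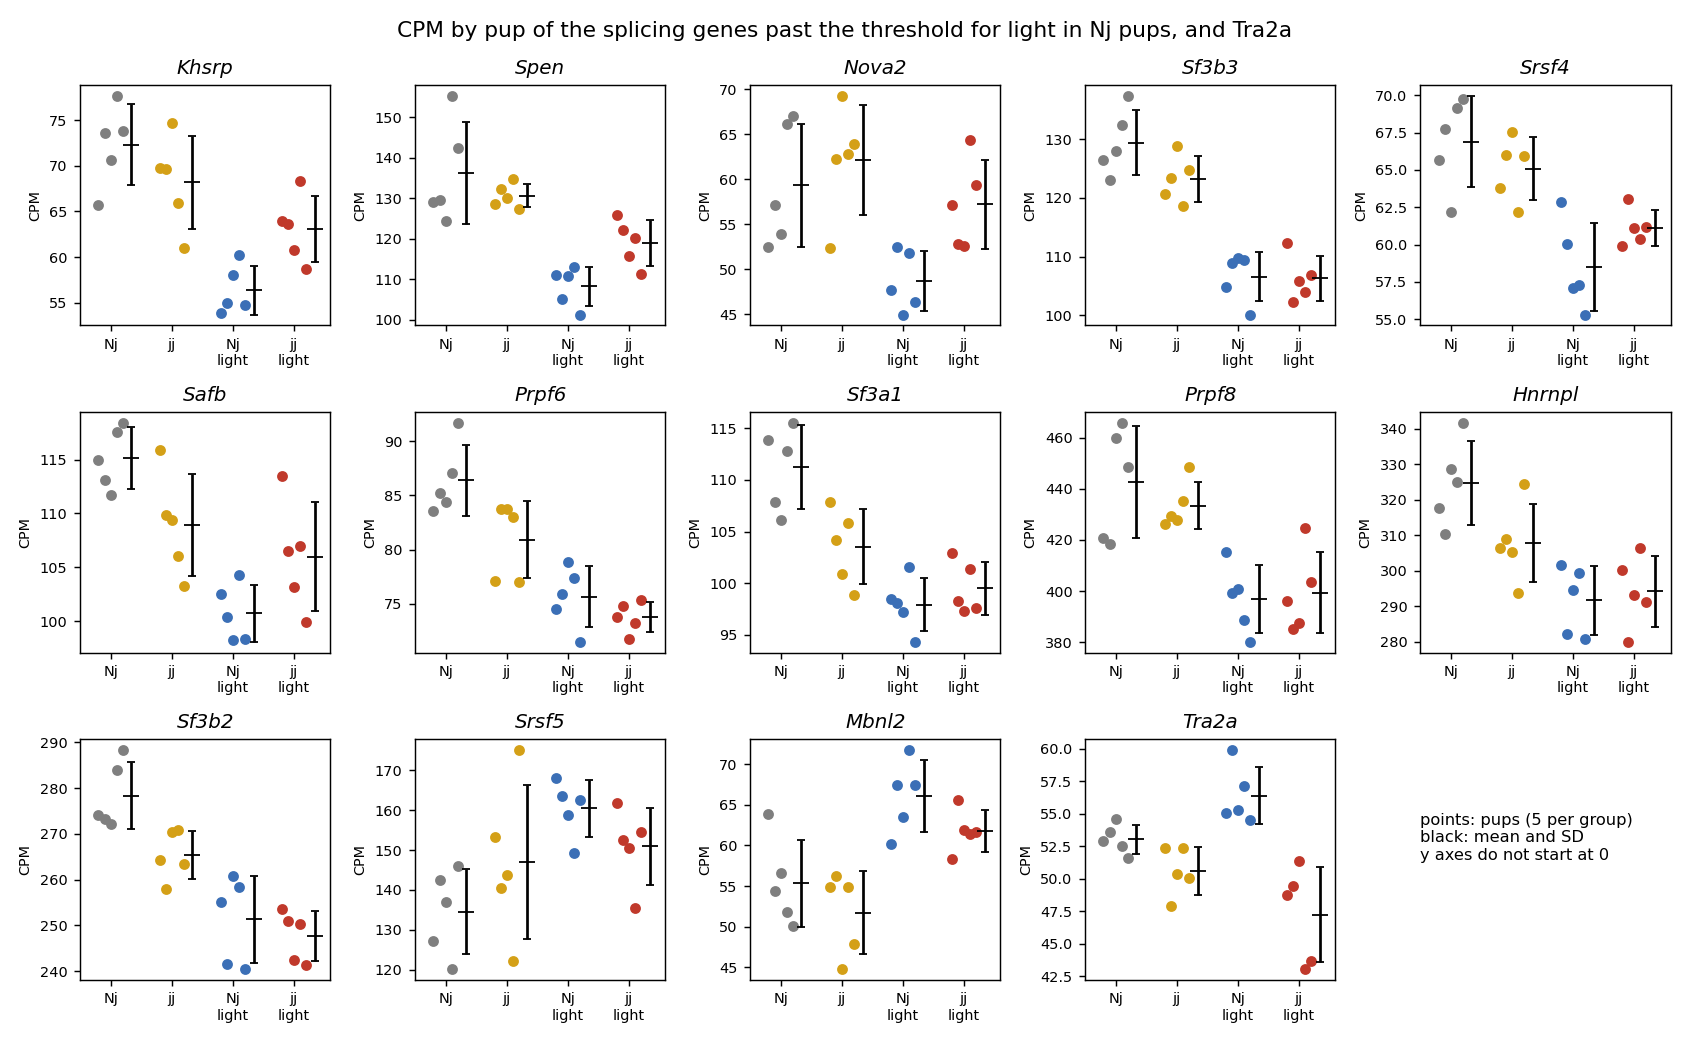
CPM of the 13 splicing genes that passed for light in Nj pups and of Tra2a, with 1 point per pup, 5 pups per group, and the mean and SD in black. Khsrp, Spen and Sf3b3 lie lower in every treated Nj pup than in every untreated Nj pup, and the vertical axes do not start at 0.

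The same direction appeared in other splicing genes from 7 further lists, which hold 176 tested genes beside the 70. Of these, 13 fell and 1 rose with light in Nj pups, or 7.95% against 4.00% of all genes, with a median change of -0.03. Among 17 further SR-related and speckle proteins, 4 fell, namely Acin1 (-0.19), Scaf4 (-0.23), Rnps1 (-0.13) and Thrap3 (-0.13), and Pnisr rose by 0.32, with edgeR adjusted p of 0.0200, 0.0265, 0.0403, 0.0452 and 0.0385. The 34 snRNP proteins held 3 that fell, which were Snrnp200 (-0.20), Eftud2 (-0.14) and Sart1 (-0.19), with edgeR adjusted p of 0.00748, 0.0341 and 0.0442, while 16 of the 34 were higher in treated pups without passing. Cherp and Puf60, from the list of assembly factors and helicases, fell by 0.20 and 0.12 on the log2 scale (edgeR adjusted p = 0.0308 and 0.0488). That list has 36 symbols, which matched 37 tested Ensembl genes. Of 24 other nuclear RNA-binding proteins 2 fell, among them Raly by 0.15 on the log2 scale (edgeR adjusted p = 0.0466). Casc3 of the exon junction complex (1 of 24 in its list, -0.15, edgeR adjusted p = 0.0265) and the neuronal Elavl3 (1 of 32, -0.17, adjusted p = 0.0474) fell as well, and 0 of 8 kinases of SR proteins passed. These lists were written with earlier results of these data known.

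Markers of several cell types moved with light in the same pups. Of all genes tested 2.51% fell and 1.49% rose with light in Nj pups. In these pups 8 of 29 markers of dividing cells fell (0 rose), and their summed level was 644 to 699 CPM in untreated and 586 to 647 CPM in treated pups. Of 20 markers of immature neurons 4 fell, among them Tubb3, Tubb2b, Sox11 and Draxin, with sums of 13623 to 14768 CPM untreated and 11813 to 13547 CPM treated. Of 20 markers of mature neurons 2 rose, Nrgn and Vsnl1, with sums of 10104 to 11130 CPM against 11248 to 11652 CPM, and Rbfox3, which stands in that list, did not pass. Microglia had 3 of 13 markers higher and 0 lower, with sums of 156 to 173 CPM untreated and 168 to 198 CPM treated, and astrocytes had 3 of 12 higher and 1 lower, at 3206 to 3726 against 3583 to 3792 CPM. None of 16 choroid plexus genes passed, with sums of 61.2 to 4850.1 CPM untreated and 75.1 to 4658 CPM treated, and none of 11 ependymal or 13 mitochondrial genes did. None of these markers was at 0 in every library, and the summed levels of the Nj groups did not overlap for immature neurons and for mature neurons but overlapped in each of the other lists given here. Of the tested markers of meninges (15), endothelium (10), oligodendrocyte lineage (13) and red blood cells (7), 0 passed. All 7 red blood cell genes were lower in treated Nj pups, with a median change of -0.37. All 16 choroid plexus genes were higher in treated Nj pups, with a median change of 0.40. With light in jj pups all 16 were also higher, with a median change of 1.02, and 0 passed. The part of these cell types in the changes of the splicing genes was not tested.

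Light in jj pups changed 1 of the 70 splicing genes, Sf3b3, which fell, where 0.164% of all genes tested were called, 0.124% lower and 0.0393% higher. DESeq2 called 2 of the 70, Sf3b3 and Mbnl2, and 2.35% of the genes it tested. Sf3b3 measured 121, 123.35, 129, 119 and 125 CPM in the 5 untreated jj pups and 112, 102, 106, 104 and 107 in the 5 treated ones. As in Nj pups the groups did not overlap, and the change was -0.21 (SE 0.04, edgeR adjusted p = 0.0342), or 0.863 times the untreated level. The call was lost without untreated jj replicate 4 or 5 or treated jj replicate 2, 3, 4 or 5 (adjusted p up to 0.127), and in the fits with only the jj groups or without the libraries rich in Ttr (change -0.16, adjusted p = 0.478). It remained without untreated jj replicate 3, the library with the lowest median deviation. Untreated jj libraries carry the prefix J17 and treated ones J18, so prefix and light cannot be told apart here either. At an unadjusted p under 0.05, 14 of 70 passed, 12 of them lower, where 13.0% of all genes did.

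Mbnl2 was again higher in treated pups, at 54.8, 56.3, 44.8, 54.9 and 47.9 CPM untreated and 58.3, 65.6, 62.0, 61.5 and 61.6 treated. The jj groups did not overlap and the difference was 0.26 (SE 0.07), but the edgeR adjusted p was 0.100, while DESeq2 gave 0.0284. Prpf6 differed by -0.13, Prpf8 by -0.12, Sf3b2 by -0.10, Hnrnpul1 by -0.10, U2af2 by -0.12 and Spen by -0.13, each without overlap between the groups and without passing. In all, 7 of the 70 genes were lower and 1 was higher with no overlap, against 1.69% and 1.27% of all genes. Khsrp, the steepest gene in Nj pups, lay at 69.7, 69.6, 74.7, 65.9 and 61.0 CPM untreated and 63.9, 63.7, 60.8, 68.3 and 58.7 treated, which overlapped (difference -0.11, edgeR adjusted p = 0.397). Srsf5 showed no separation in jj pups, with 153, 140.5, 144, 122 and 175 CPM untreated and 162, 152, 150.4, 136 and 155 treated and a difference of 0.04. Rbfox1, which regulates neuronal exons, differed by 0.17 (edgeR adjusted p = 0.232).

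The light comparisons in the 2 genotypes share no library, so their directions can be set side by side. Both treated groups carry the title prefix J18 and no untreated group does, so a shared direction cannot tell light from prefix. All 13 splicing genes called in Nj pups had the same sign in jj pups, and 7 of them (53.8%) also had an unadjusted p under 0.05 there. Over all genes the same held for 589 of 611 in sign (96.4%) and for 378 in sign and p (61.9%). The median ratio of the change in jj pups to that in Nj pups was 0.421 for the 13 genes and 0.585 for the 611 genes. Since the genes were chosen by their change in Nj pups, these ratios are a description and no test.

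**Figure D3:**
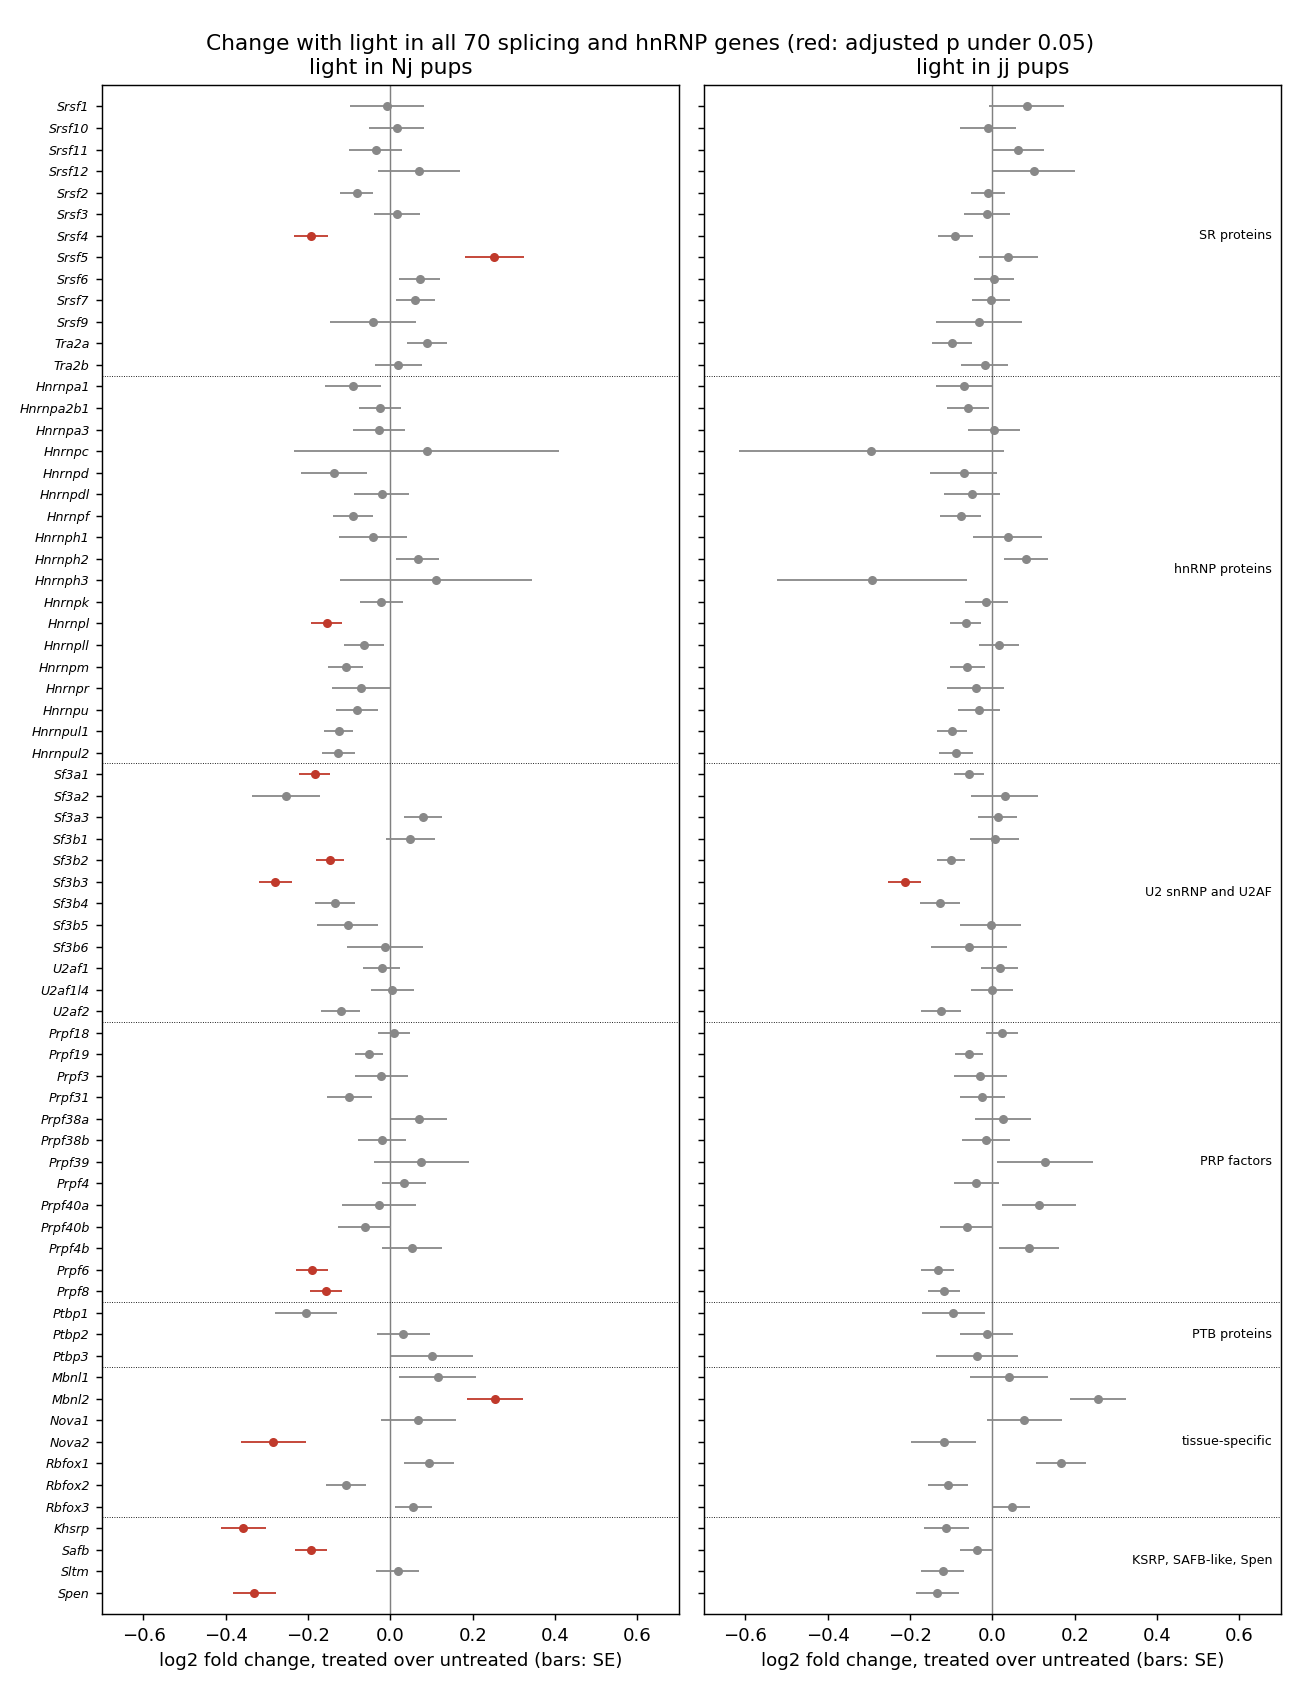
Log2 fold change with light of each of the 70 genes in Nj pups on the left and jj pups on the right, with the SE as bars and genes past adjusted p 0.05 in red. In Nj pups 13 points are red, and in jj pups 1, Sf3b3.

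The test of the difference between genotypes, an interaction term, called 0 of the 70 splicing genes and 0 of all genes. At an unadjusted p under 0.05 it counted 7 of 70, where 3.41% of all genes passed, and DESeq2 called 0 of the 70. The lowest p belonged to Khsrp, whose decrease was smaller in jj pups by 0.25 (SE 0.08, edgeR adjusted p = 1.00). Spen (0.20), Safb (0.15), Sf3a1 (0.13) and Sf3a2 (0.28) leaned the same way and Tra2a (-0.19) and Srsf5 (-0.21) the other way, all with an adjusted p of 1.00. A different response of the genotypes was therefore not detectable for any splicing gene with 5 pups per group.

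Jaundice without light changed 0 of the 70 splicing genes, and 0 of all genes passed in edgeR. At an unadjusted p under 0.05 the count was 6 of 70, all lower in jj pups, where 6.36% of all genes passed, and DESeq2 called 0 of the 70 and 0.00439% of its genes. Differences were small but leaned down, since 51 of 70 genes were lower in jj pups, where 49.0% of all genes were. The median of the 70 was -0.06 against 0.00 over all genes. The untreated jj library with the lowest median deviation, replicate 3, is in this comparison. Its mitochondrial genes also summed to only 24353 CPM, where every other library lay at 34339 to 45103 CPM. The part of this library in the downward lean was not tested. The untreated groups have no title prefix in common (J13, J14 and J15 against J17), so prefix and genotype cannot be told apart. Srsf11 had the lowest p among SR proteins (-0.17, edgeR adjusted p = 0.775), with 102 ± 3.56 CPM in untreated Nj pups and 91.1 ± 11 in untreated jj pups (mean ± SD, n = 5), whose low values include replicate 3 at 74.97 CPM. Over all 70 genes Sf3a1 (-0.10) had the lowest p, followed by Srsf11 and Prpf6 (-0.09). Sf3b2 was the only one of the 70 whose untreated groups did not overlap, at 272 to 288 CPM in Nj pups and 258 to 271 CPM in jj pups, against 0.524% of all genes lower without overlap. The untreated Nj pups also serve as controls for light in Nj pups, so these comparisons are not independent of each other.

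Jaundice under light changed 0 of the 70 splicing genes by edgeR, as 0 of all genes, with 6 of 70 at an unadjusted p under 0.05 where 6.62% of all genes passed. In 2 of the 70 genes the jj range lay wholly below the Nj range and in 1 wholly above it, against 0.609% and 0.596% of all genes. Tra2a (ENSRNOG00000009156), an SR-like activator of exons, came nearest. Tra2a measured 55.1, 59.9, 55.3, 57.2 and 54.5 CPM in treated Nj pups and 48.7, 49.5, 51.3, 43.1 and 43.6 in treated jj pups. The groups did not overlap, the jj pups were lower by 0.26 on the log2 scale (SE 0.05), and the edgeR adjusted p was 0.371 while DESeq2 gave 0.0109, 1 of 2 genes it called among all (0.00878%). Without light the same gene lay at 52.9, 53.6, 54.6, 52.5 and 51.6 CPM in Nj pups and 52.4, 47.9, 50.4, 52.3 and 50.1 in jj pups, which overlap. The difference under light shrank to -0.16 without the libraries rich in Ttr, which include the 2 lowest jj pups at 43.1 and 43.6 CPM. Sltm was also lower in treated jj pups, with 109, 111, 107, 102 and 101 CPM in treated Nj pups and 93.6, 89.0, 98.3, 83.9 and 88.5 in treated jj pups, without overlap (-0.22, edgeR adjusted p = 0.713). Nova2 lay higher in jj pups, at 52.6 to 64.4 CPM against 45.0 to 52.5 CPM in treated Nj pups (0.23, edgeR adjusted p = 0.724). Both treated groups carry the same title prefix, J18, so this comparison lies within a prefix.

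A contrast of treated against untreated pups averaged over both genotypes, added after seeing the data, called 17 of the 70 genes, 16 lower and 1 higher, where 10.1% of all genes were called, 5.74% lower and 4.35% higher. At an unadjusted p under 0.05 it counted 23 of 70, where 24.6% of all genes passed. All treated pups carry the prefix J18 and no untreated pup does, so prefix and light cannot be told apart in this contrast. The 17 held 12 of the 13 genes above, without Srsf5 (adjusted p = 0.0705), and added Hnrnpul1, Hnrnpul2, Sf3b4, U2af2 and Rbfox2. Rbfox2 passed only just (edgeR adjusted p = 0.0489) and kept its call in 4 of the 20 fits that left out 1 library (adjusted p up to 0.122), those without untreated Nj replicate 2, untreated jj replicate 1 or 3 or treated Nj replicate 2. The call of U2af2 was lost without untreated Nj replicate 4 or 5 or treated jj replicate 5 (adjusted p up to 0.0629), and that of Nova2 without untreated Nj replicate 4 or 5, treated Nj replicate 3 or 5 or treated jj replicate 3 (adjusted p up to 0.0632). Sf3b3 stood first with -0.25 (SE 0.03, edgeR adjusted p = 3.45e-05), followed by Spen with -0.23 (adjusted p = 0.000674), Khsrp with -0.23 (adjusted p = 0.000918), Prpf6 with -0.16 (adjusted p = 0.00111) and Mbnl2 with 0.26 (adjusted p = 0.00183). In the U2 and U2AF group 5 of 12 genes passed, all lower. Without the libraries rich in Ttr 6 of the 70 passed, where 2.74% of all genes did, and these were Sf3b3, Spen, Khsrp, Prpf6, Prpf8 and Srsf4.

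Spread among the pups of a group was small for most of the 70 genes. Their median coefficient of variation within groups was 5.73%, from 2.51% for Prpf19 to 35.6% for Hnrnpc, against 8.68% over all genes tested. This is a description, with no test. Hnrnpc measured 23.5, 11.0, 13.4, 15.4 and 31.0 CPM in untreated Nj pups and 28.6, 12.1, 18.0005, 14.9 and 26.96 in treated ones, and its range in jj pups was 15.1 to 30.1 and 12.6 to 28.4 CPM. Hnrnph3 was the next most variable and had the lowest CPM of the 70, between 2.53 and 7.50, while Hnrnpu had the highest mean, 595 ± 26.8 CPM in untreated Nj pups (SD, n = 5). CPM are not divided by transcript length, so these are read numbers and not a ranking of transcripts. Reads of hnRNP genes with near-identical copies in the genome may be shared out among them. The spans of 24 of the 70 genes overlap another RefSeq gene, 6 of the 13 called ones among them (Sf3a1, Sf3b2, Sf3b3, Hnrnpl, Mbnl2 and Khsrp), and without a stated strand setting their reads cannot be told from those of the neighbour.

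**Figure D4:**
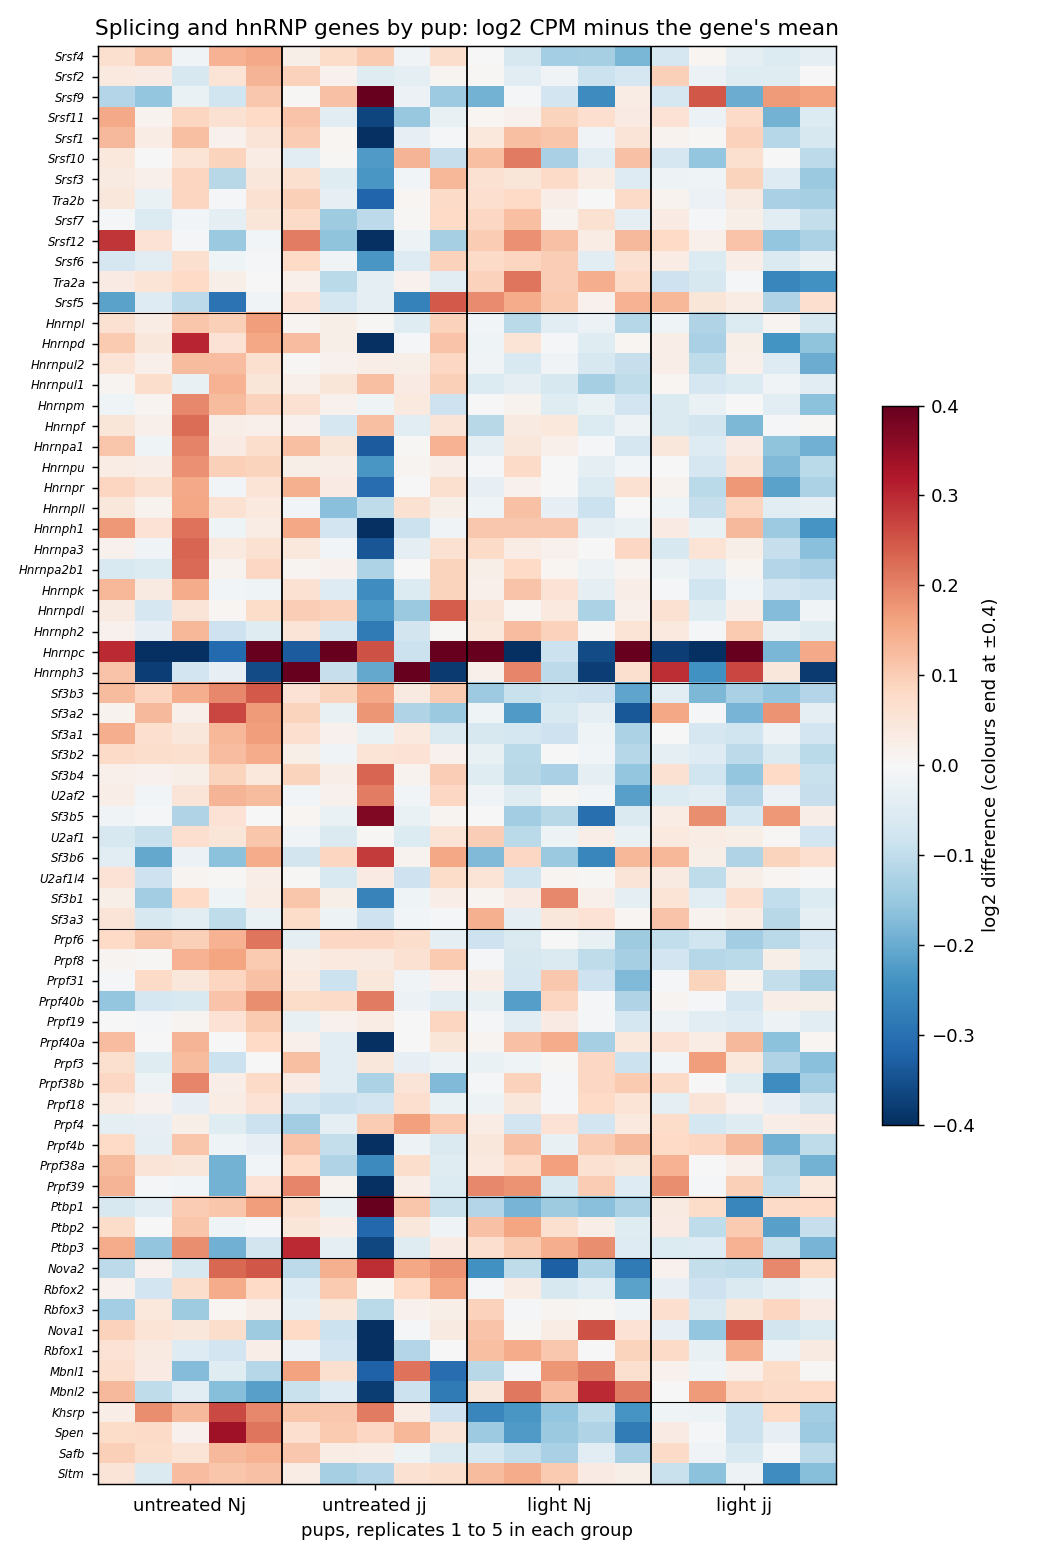
Log2 CPM of each of the 70 genes in each of the 20 pups, as the difference from the gene's mean over all pups, grouped by role from SR proteins at the top to Khsrp, Spen, Safb and Sltm at the bottom. Untreated jj replicate 3 stands apart as a dark column, and Hnrnpc and Hnrnph3 vary from pup to pup in every group.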

How the data were processed

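PolyA RNA-seq of hippocampus from 20 Gunn rat pups was analysed, 5 per group. The authors deposited raw read counts for 32883 rat Ensembl genes, not normalised. The tools in the submitters' processing notes are FastQC, TopHat2 2.0.13, Subread and edgeR, and the only build there is mm10, of mouse, although the deposited identifiers are rat. The rat build and the strand setting are not given in the sources used here.

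From these counts, edgeR 4.0.16 in R 4.3.3 was run on all 20 libraries (filterByExpr by group, TMM, 1 mean per group, robust quasi-likelihood F-test with legacy estimates, limma 3.58.1), with Benjamini-Hochberg adjustment over 15272 genes and a threshold of 0.05. The SE of a log2 change was taken as its size over the root of F. CPM used TMM-scaled library sizes, and depth was 16882652 to 27112749 counts per library. DESeq2 1.42.0 was the second tool. The scripts were tested on simulated data. Groups follow the labels, no replicate number links groups, and no library was left out.

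Named genes were every called gene among the 70, the lowest p per role elsewhere, a fixed display set of well-known members and the 3 called genes with the lowest p in each further list. Rnps1 and Thrap3 lie outside this rule and were named after their values were seen. The members and lists were chosen with earlier results of these data known. The averaged contrast and the fits without libraries above 1000 CPM of Ttr were chosen after seeing the data. Promoter sequences are from RefSeq, build GRCr8, and no coordinates of the count table are given. The series text speaks of 6 untreated pups per genotype, and 5 of each were analysed here. The values of 1 called gene from the further splicing lists are not reported here.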

Additional observations from a re-analysis of the deposited data

Results flagged for a closer look

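The search covered 21 splicing genes, those called in a comparison or, where none was called, those with the lowest p. In each, the 5 pups of each of 4 groups were searched for a highest or lowest value set apart from the others. Of 84 groups 2 (2.38%) had one, where chance gives about 1 in 20. Other splicing genes were not searched, and untreated jj replicate 3 stood apart in some of them. There Hnrnpu was 477 CPM against 566 to 572 CPM in the other 4 pups, and Srsf1 was 180 CPM against 279 to 306 CPM. The share therefore does not describe all 70 genes. Hnrnpul2, a relative of Hnrnpu, was 199 CPM in untreated jj replicate 5, above the other 4 pups at 189 to 192 CPM, with a gap of 0.732 of the range of the group. U2af2, the large subunit of U2AF, was 119.9 CPM in treated Nj replicate 5, below the other 4 pups at 135 to 139.8 CPM, with a gap of 0.748 of the range. Treated Nj replicate 5 is 1 of the 7 libraries above 1000 CPM of Ttr, and the part of that in its low U2af2 value was not tested.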

How the results depend on the processing

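For light in Nj pups the count of 13 of 70 genes was 14 with the size factors of DESeq2, 11 with no count filter, 13 with the newer quasi-likelihood estimates, 16 with DESeq2, 16 with the compared groups alone and 13 with the untreated Nj pups of prefix J15 only. It was 3 without the libraries above 1000 CPM of Ttr and 5 to 13 when 1 library was left out. That fit uses 13 libraries, and what lowers the count beyond their number was not tested. For light in jj pups the count of 1 became 2 with DESeq2, 0 with the compared groups alone, 0 without the libraries rich in Ttr and 0 to 1 with 1 library left out. For jaundice under light the count of 0 became 1 with DESeq2, Tra2a, and stayed 0 to 0 with 1 library left out, as did jaundice without light and the interaction. The averaged contrast went from 17 to 6 without the libraries rich in Ttr and to 14 to 20 with 1 library left out. The sign of a named change reversed once, for Srsf5 with light in jj pups, at -0.021 without untreated jj replicate 4, where the highest value, without replicate 5, was 0.118. Scaling by the size factors of DESeq2 moved the median of all genes by less than 0.01 (log2). At these depths counting error is small for most of the 70 genes, and the number of pups limits the precision. No paired analysis was possible because the replicate numbers only name pups and no label links pups of different groups.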
